A study of Mus musculus with 10 samples.

Results

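The transcripts described here encode receptors through which nerve-derived peptides and catecholamines act on other cells. They are the receptor genes Calcrl, Tacr1, Npy1r, Vipr1, Vipr2, Adrb1 and Adra2a and the receptor activity-modifying protein genes Ramp1 and Ramp3, 9 genes in all. Members were taken by name, as probe sets whose annotation gives exactly 1 of these symbols. This found 13 probe sets for 7 of the 9 genes, among 18193 genes measured. Adrb1 and Adra2a, which encode the beta-1 and alpha-2A adrenergic receptors, were not analysed here. Where a gene has several probe sets, the one with the highest average was used, and the rest served as a check.

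The samples are dental mesenchyme of the lower incisor, the pulp tissue inside a tooth that grows throughout life, from wild-type C57BL/6J mice at postnatal day 60. In 5 incisors, called denervated, the inferior alveolar nerve, which carries sensation from the lower jaw, had been resected 2 weeks before. The other 5, called contralateral, came from the side that kept its nerve in animals operated on the opposite side. No sham-operated incisors were analysed here, so loss of the nerve and the operation itself cannot be told apart.

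Sensory endings in tooth pulp release calcitonin gene-related peptide (CGRP) and substance P, and sympathetic endings release noradrenaline and neuropeptide Y. CALCRL is a G protein-coupled receptor that needs a RAMP partner: with RAMP1 it binds CGRP, and with RAMP2 or RAMP3 it binds adrenomedullin, a peptide of the vessel wall. TACR1 is the receptor for substance P, NPY1R a receptor for neuropeptide Y, and VIPR1 and VIPR2 are receptors for vasoactive intestinal peptide. In pulp, CGRP and substance P are known for widening vessels, and neuropeptide Y and noradrenaline for narrowing them.

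Values are log2 intensities, as deposited, with array medians over all probe sets between 1.48 and 1.54. The values carry no detection calls, so a value near the low end cannot be told from background, and means below 2 were found for 40.7% of the 18193 genes. The number of arrays limits the precision. Odontoblast markers fitted the labelled tissue, with Dspp at a mean of 12.16 over the 10 arrays. Enamel epithelium was also present, with Ambn at 12.69, while all 7 mast cell and all 5 skeletal muscle markers had means below 2. Denervated arrays 2 and 3 stood apart in cell type markers. The mean of gene-centred endothelial markers was 0.50 and 0.47 there, and between -0.34 and 0.11 in the other 8 arrays. Denervated array 3 was also low in 9 epithelial markers, at -2.42, against values between 0.11 and 0.43 in all other arrays.

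Of the 7 measured receptor genes, Calcrl alone had a mean of at least 3 on the log2 scale, 5.56 over the 10 arrays. Ramp1 had a mean of 2.89 and the other 5 had means below 2. No receptor gene passed the test between denervated and contralateral incisors, and no other gene did. In limma's test with Benjamini-Hochberg adjustment over 18193 genes, 0% of the genes passed, 0 of the 7 receptor genes among them. Without adjustment, p was under 0.05 for 6.21% of all genes and for 0 of the 7, and with the mouse as a block for 9.92% of all genes and for 0 of the 7. The receptor genes' median log2 difference, denervated minus contralateral, was 0.0059, beside 0.018 over all genes, and 4 of the 7 averaged higher on the denervated side, as did 55.8% of all genes. The values of the groups overlapped for 7 of 7 receptor genes, and 0.951% of all genes had groups that did not overlap.

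RefSeq's windows for Calcrl and Ramp1 are shown because they are the members whose probe sets lay farthest above the array medians. Each window holds the 250 bases before the start that the sequence table uses, on build GRCm38.p6, which for some genes lies inside the gene's annotated extent. For Calcrl, 139 of the 250 bases lie inside the gene's annotated extent, so that only the 111 bases outside it are printed, while the Ramp1 window lies wholly outside. Both run 5′ to 3′ on the gene's strand, and capitals mark GGAA on either strand, the core bound by ETS factors.
Calcrl, chr2:84425406-84425516, minus strand: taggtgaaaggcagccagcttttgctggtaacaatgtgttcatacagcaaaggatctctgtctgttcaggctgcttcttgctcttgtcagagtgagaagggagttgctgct
Ramp1, chr1:91179572-91179821, plus strand: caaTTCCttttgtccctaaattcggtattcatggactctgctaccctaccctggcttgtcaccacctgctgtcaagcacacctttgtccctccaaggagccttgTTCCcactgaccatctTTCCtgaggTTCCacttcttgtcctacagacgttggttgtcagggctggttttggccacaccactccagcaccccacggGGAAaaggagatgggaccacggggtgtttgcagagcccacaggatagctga
GGAA or its complement was at 5 places in the Ramp1 window and at none in the printed Calcrl bases. The Calcrl window held 3, all of them in the 139 bases inside the gene's extent, and 93.4% of the 32851 windows of this length in the RefSeq table held at least 1. Of the 9 members' windows, 4 lie wholly outside the gene's extent (Ramp1, Vipr1, Adrb1 and Adra2a), 3 wholly inside it (Tacr1, Npy1r and Vipr2) and 2 partly inside (Calcrl and Ramp3). The cAMP response element TGACGTCA, through which cAMP signals act on transcription, was searched on both strands, was in none of the 9 windows and was in 1.55% of all windows. The shorter element TGACG, which lies within it, occurred once in each of the windows of Tacr1, Vipr1, Adrb1 and Adra2a, and in 17.8% of all windows. The GC box GGGCGG occurred 3 times in the windows of Ramp3 and Vipr1, once in those of Calcrl, Vipr2, Adrb1 and Adra2a, in none of the other 3, and in 32.7% of all windows. The GC content of the full windows was 48.4% for Calcrl and 54% for Ramp1, and 72.8% for Vipr1 and 74% for Adrb1, with a median of 52.4% over all windows. These matches describe the letters of the windows only.

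Calcrl lies on chromosome 2 from 84330626 to 84425405 (GRCm38.p6). Its log2 values were 5.74, 5.52, 6.16, 5.33 and 5.54 in denervated incisors 1 to 5, and 5.70, 5.54, 5.85, 5.26 and 4.97 in contralateral incisors 1 to 5. All 10 were above the array medians, the groups overlapped, and the highest value was that of denervated incisor 3 and the lowest that of contralateral incisor 5. The mean was 5.66 ± 0.31 in denervated incisors and 5.46 ± 0.35 in contralateral ones (SD, n = 5 each). The difference of 0.19 ± 0.19 (SE) had an adjusted p of 0.844 in limma's test and a 95% interval from -0.21 to 0.60. Arrays of equal number were taken to be the incisors of 1 mouse, on the basis of a check of the data given with the methods. Within mice 1 to 5 Calcrl differed by 0.04, -0.02, 0.31, 0.08 and 0.56, so that mice 3 and 5 carried most of the difference. With the mouse as a block the interval was -0.03 to 0.42 and limma's adjusted p 0.543. Without denervated array 3, or without contralateral array 5, the difference was 0.07.

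The other Calcrl probe sets did not show this direction. They had means of 0.72 and 0.22 and differences of -0.14 and -0.03, with 1 and 2 of 5 mice higher in the denervated incisor. Both lay near the low end of the scale, below every array median.

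Ramp1, on chromosome 1 from 91179822 to 91225196, encodes the partner that turns CALCRL into a CGRP receptor. Its log2 values were 2.98, 2.93, 3.60, 2.99 and 2.34 in denervated incisors 1 to 5, and 3.13, 2.89, 2.73, 2.90 and 2.34 in contralateral incisors 1 to 5. Denervated incisor 3 was the highest of the 10, both incisors numbered 5 were the lowest, and the groups overlapped. The mean was 2.97 ± 0.45 in denervated incisors and 2.80 ± 0.29 in contralateral ones (SD, n = 5 each). The difference was 0.17 ± 0.21 (SE; 95% interval -0.29 to 0.63), with an adjusted p of 0.881 in limma's test, or 0.697 with the mouse as a block. Mouse 3 differed by 0.87, and the other 4 mice by values between -0.16 and 0.09. Without denervated array 3 the difference was 0.012, without contralateral array 5 it was 0.056, and without denervated array 5 it was 0.33. The 2 other Ramp1 probe sets had means of 0.65 and 0.43 and differences of 0.01 and 0.02.

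Ramp3, on chromosome 11 from 6658506 to 6677478, encodes a partner that gives CALCRL an adrenomedullin-binding form. Its single probe set read 1.79, 1.63, 1.73, 1.75 and 1.67 in denervated incisors 1 to 5, and 1.54, 1.58, 1.81, 1.99 and 1.68 in contralateral incisors 1 to 5. The values of the denervated incisors lay within the range of the contralateral ones, and all 10 lay above their array's median, by less than 0.5. The difference was -0.0075 ± 0.090 (SE), with an adjusted p of 0.990 in limma's test and 2 of 5 mice higher.

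**Figure D1:**
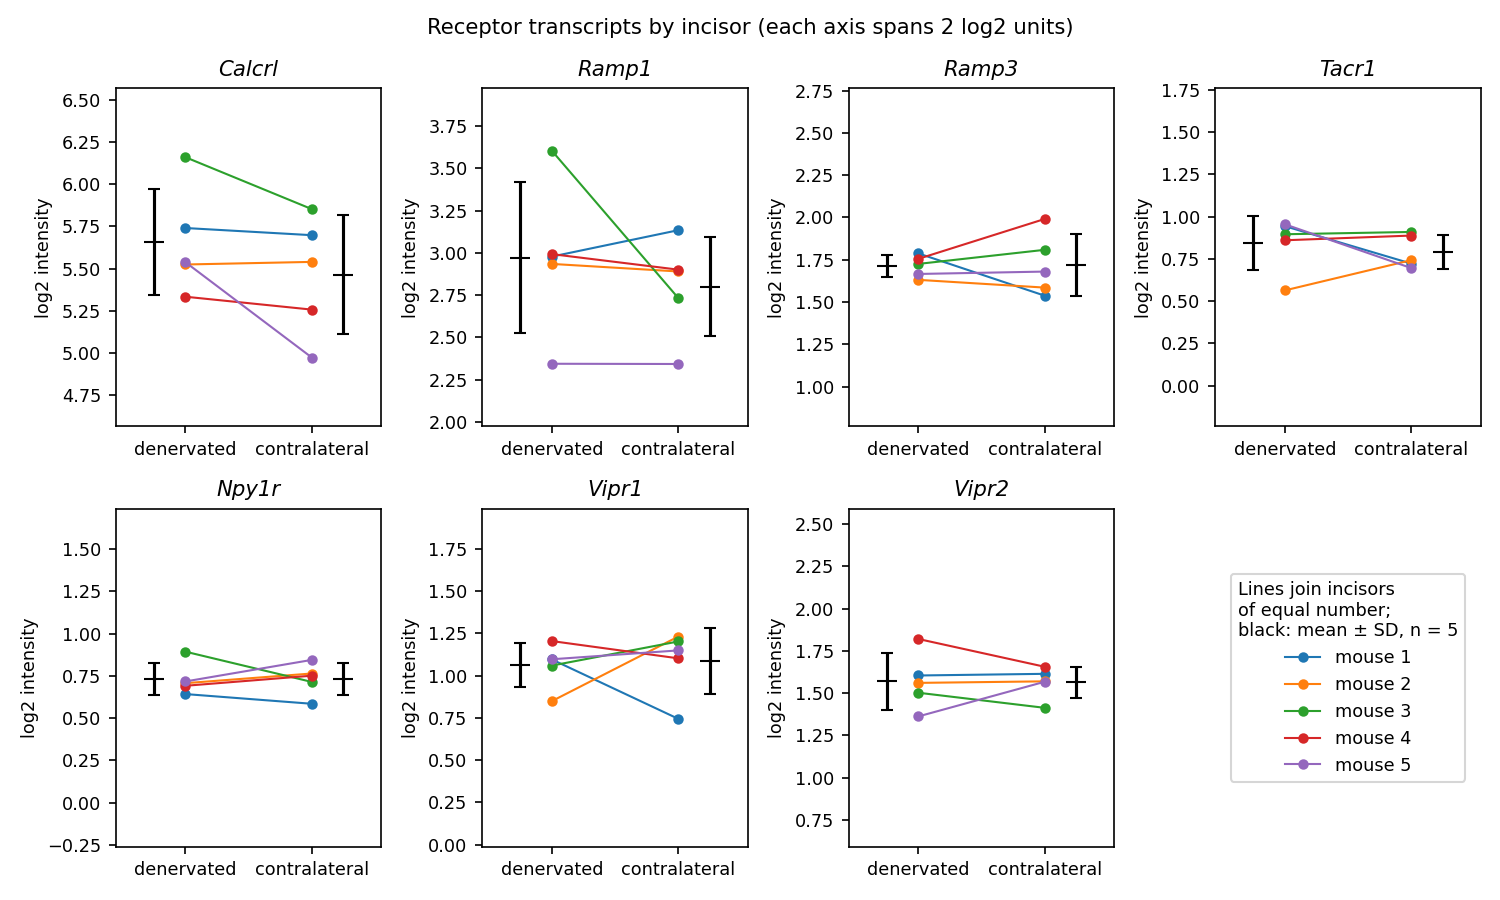
Log2 intensity (vertical axes, each spanning 2 log2 units) of the 7 measured receptor genes in denervated (left) and contralateral (right) incisors; coloured lines join incisors of equal number and black marks give the mean ± SD (n = 5). Calcrl and Ramp1 spread over more than 1 log2 unit and the groups overlap for each gene.

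The peptide receptors lay near the low end of the scale in both groups. Tacr1, the substance P receptor gene (chromosome 6, 82402003 to 82560104), read 0.94, 0.56, 0.90, 0.86 and 0.95 in denervated incisors 1 to 5, and 0.72, 0.74, 0.91, 0.89 and 0.69 in contralateral incisors 1 to 5. Every value was below its array's median, and denervated incisor 2 was the lowest. The difference was 0.05 ± 0.09 (SE; 95% interval -0.14 to 0.25), with 2 of 5 mice higher and an adjusted p of 0.913 in limma's test. Npy1r (chromosome 8, 66697149 to 66706800) ranged from 0.64 to 0.89 with a median of 0.71 in the denervated incisors, and from 0.58 to 0.84 with a median of 0.75 in the contralateral ones. Its difference was -0.0016 ± 0.073 (SE), and its second probe set, with a mean of 0.62, differed by -0.02. Npy1r also stayed below the median of every array.

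Vipr1 (chromosome 9, 121642716 to 121672954) had 1.10, 0.85, 1.06, 1.20 and 1.10 in denervated incisors 1 to 5, and 0.74, 1.23, 1.20, 1.10 and 1.15 in contralateral incisors 1 to 5. Mice 1 and 2 differed in opposite directions, by 0.35 and -0.38, and the mean difference was -0.02 ± 0.10 (SE; adjusted p 0.967 in limma's test). Vipr2 (chromosome 12, 116077420 to 116148637) had 1.60, 1.56, 1.50, 1.82 and 1.36 in denervated incisors 1 to 5, and 1.61, 1.57, 1.41, 1.66 and 1.57 in contralateral incisors 1 to 5. It exceeded the array median in 7 of 10 arrays, and its difference was 0.0059 ± 0.089 (SE; adjusted p 0.992 in limma's test). The 5 low members spanned between 0.31 and 0.49 log2 units over the 10 arrays, where the median span of the 7413 genes with a mean below 2 was 0.44. From 17.5% to 59.9% of those genes had a smaller span than one of the 5, and differences among such low values are compressed. A p that misses the threshold does not show that the groups are alike: the 95% intervals of these 5 genes reached from -0.25 at the lowest to 0.25 at the highest.

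**Figure D2:**
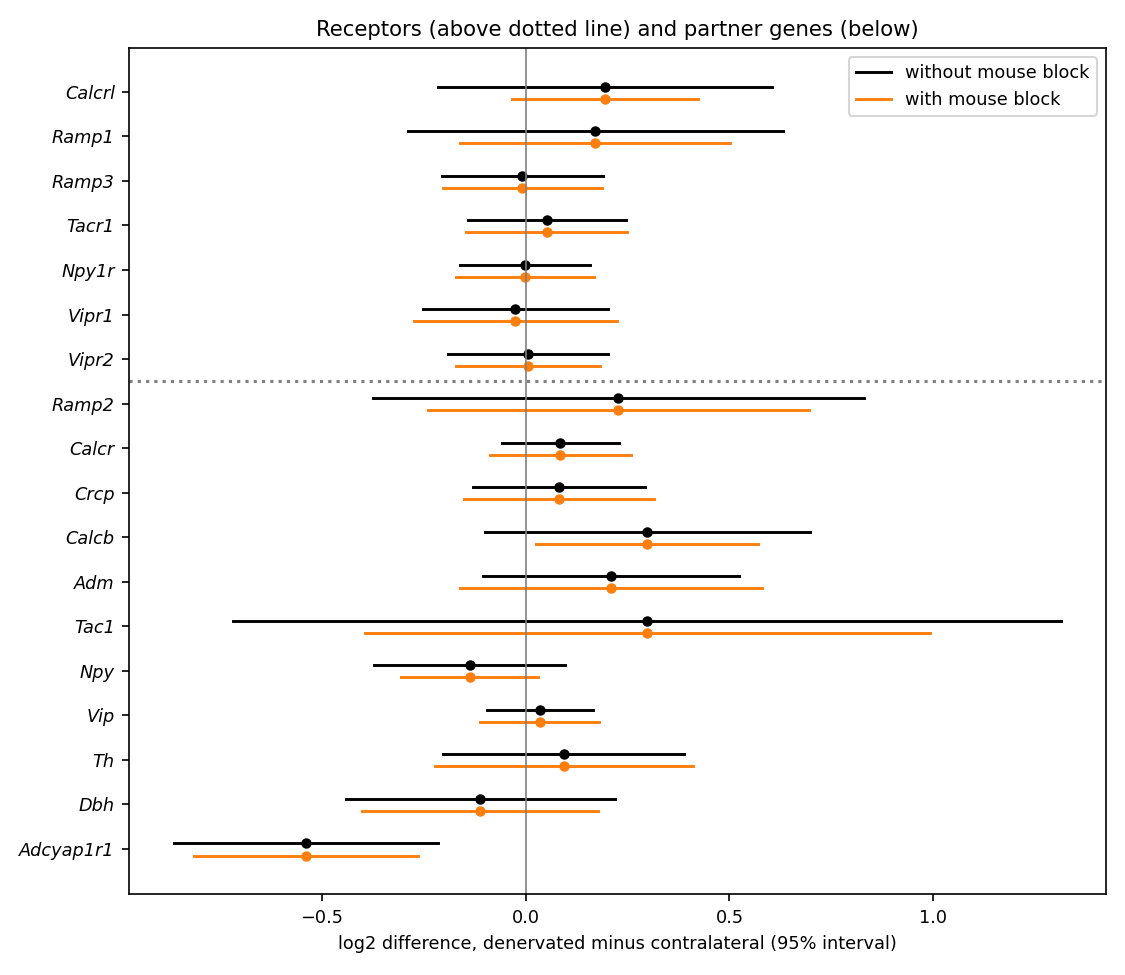
Log2 difference, denervated minus contralateral, with limma's 95% interval without (black) and with (orange) the mouse as a block, for the 7 receptor genes (above the dotted line) and 11 partner genes (below). Each receptor gene's interval includes 0, and that of Adcyap1r1 lies between -0.86 and -0.22 without the block. With the block, that of Adcyap1r1 lies between -0.81 and -0.26 and that of Calcb between 0.03 and 0.57.

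The partners of these receptors were described from lists of related genes, chosen with earlier results of these data known. Ramp2, whose protein gives CALCRL its main adrenomedullin-binding form, read 5.23, 6.32, 6.03, 5.31 and 4.65 in denervated incisors 1 to 5, and 5.44, 5.50, 5.10, 5.39 and 4.97 in contralateral incisors 1 to 5. Denervated incisors 2 and 3 were the highest, and denervated incisor 5 the lowest, so that the groups overlapped. The difference was 0.23 ± 0.27 (SE; adjusted p 0.880 in limma's test), and -0.20 without mice 2 and 3. Crcp, which encodes the component that couples the CGRP receptor to its signalling, had 5.12 ± 0.06 in denervated incisors and 5.04 ± 0.20 in contralateral ones (SD, n = 5 each). Calcr, the calcitonin receptor gene, lay near the low end, at 0.69 ± 0.04 in denervated and 0.60 ± 0.10 in contralateral incisors.

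Mice 2 and 3, in which Ramp2 differed by 0.82 and 0.93, were those with the higher endothelial markers. The mean of 15 endothelial markers differed by 0.58 and 0.61 in mice 2 and 3 and by -0.14, -0.12 and -0.09 in mice 1, 4 and 5. All 15 averaged higher on the denervated side, and 4 of 15 did without mice 2 and 3. Denervated arrays 2 and 3 stood apart in these same markers, so a fall follows from leaving those mice out. Their summed log2 level ranged from 67.6 to 80.1 in the denervated and from 69.4 to 74.3 in the contralateral incisors, and none had a mean below 2. Endothelial cells are known to express Calcrl, whose differences in mice 1 to 5, given above, were highest in mouse 5 and second highest in mouse 3. The markers of pericytes and smooth muscle differed by 0.98 and 0.69 in mice 2 and 3 and by -0.01 to 0.15 in mice 1, 4 and 5. Their summed level ranged from 73.2 to 86.3 in the denervated and from 72.5 to 74.1 in the contralateral incisors, with 13 of 14 higher on average and 2 with a mean below 2. Macrophage markers were higher on average in 13 of 13, and in 11 of 13 without mice 2 and 3. Their mean differed by 0.31, 0.83, 0.96, 0.13 and 0.40 in mice 1 to 5. The summed levels of these markers were 69.1 to 80.2 in the denervated and 63.9 to 69.4 in the contralateral incisors. Of the 13, 1 had a mean below 2. Schwann cell markers, 10 of 11 higher on average, differed by 2.21 in mouse 2 and 0.83 in mouse 3, and by -0.16 to 0.11 in mice 1, 4 and 5, with summed levels from 32.1 to 55.7 in the denervated and from 30.9 to 36.3 in the contralateral incisors. Markers of neurons and axons, 8 of 10 with a mean below 2, had summed levels from 15.5 to 19.5 in the denervated and from 16.8 to 19.8 in the contralateral incisors. Dental epithelium markers, 0 of 9 higher on average, differed by -2.70 in mouse 3 and by -0.31 to 0.10 in mice 1, 2, 4 and 5. Denervated incisor 3, low in these markers, had the highest value of both Calcrl and Ramp1. The part of these cell types in the values of Calcrl, Ramp1 and Ramp2 was not tested. In tissue RNA, more cells of a type and more RNA per cell cannot be told apart.

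**Figure D3:**
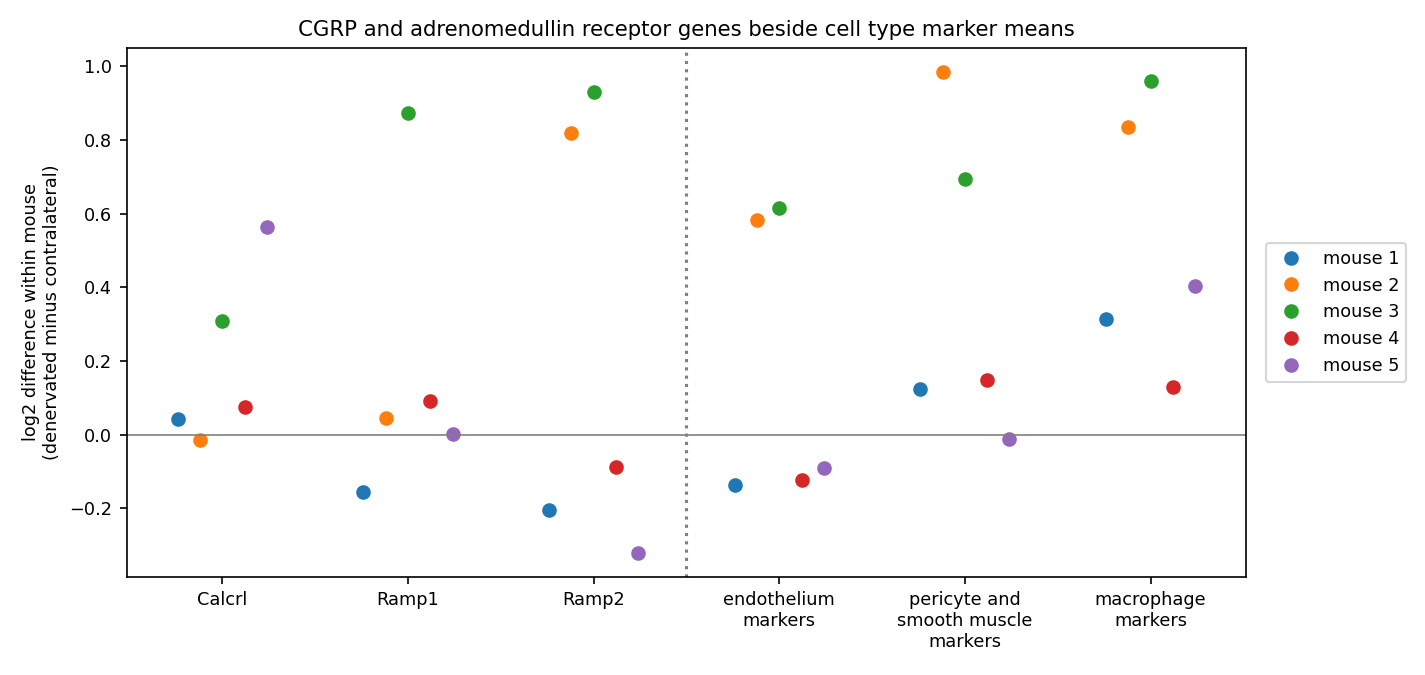
Log2 difference within each of 5 mice (denervated minus contralateral, vertical axis) for Calcrl, Ramp1 and Ramp2 and, right of the dotted line, for the mean of gene-centred endothelial, pericyte and smooth muscle, and macrophage markers. Mice 2 and 3 are the highest for Ramp2 and for all 3 marker lists, Ramp1 is highest in mouse 3, and Calcrl is highest in mouse 5 and second highest in mouse 3.

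The 3 genes whose profile over the 10 arrays was most like that of Calcrl were Trim21, Scpep1 and Cxcl14, among 6141 genes with a mean of at least 3 and a range of at least 0.5. Pearson's r was 0.94, 0.93 and 0.92 over 10 arrays, which share mice in pairs, so these values are a description. Trim21 encodes a cytosolic antibody receptor, Scpep1 a serine carboxypeptidase and Cxcl14 a chemokine. Scpep1 differed by 0.19 ± 0.10 (SE), and Cxcl14 had 6.21 ± 0.51 in denervated incisors and 5.80 ± 0.40 in contralateral ones (SD, n = 5 each). Both were higher in the denervated incisor in 5 of 5 mice, as were 6.58% of all genes.

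Among the peptide ligands, 15 of 16 listed genes were measured and 0 passed the adjusted threshold in either direction. The list had 9 members that averaged higher on the denervated side, a median difference of 0.014, and 10 members with a mean below 2. Calcb, which encodes beta-CGRP, had 3.06, 2.32, 2.58, 2.81 and 2.33 in denervated incisors 1 to 5, and 2.49, 2.26, 2.71, 2.33 and 1.82 in contralateral incisors 1 to 5. It was higher in 4 of 5 mice, with a difference of 0.30 ± 0.18 (SE) and an adjusted p of 0.804 in limma's test, or 0.474 with the block. Without contralateral array 5 the Calcb difference was 0.17. Adm, the adrenomedullin gene, differed by 0.21 ± 0.14, with means of 2.40 ± 0.30 in denervated incisors and 2.19 ± 0.18 in contralateral ones (SD, n = 5 each). Tac1, the precursor gene of substance P and neurokinin A, had levels well above the array medians in all arrays, from 5.45 to 6.94 with a median of 6.57 in the denervated and from 4.95 to 7.44 with a median of 6.49 in the contralateral incisors. Its difference was 0.30 ± 0.46 (SE) and was -0.0041 without contralateral array 2. Tac2, the neurokinin B gene, had 5.27 ± 0.82 in denervated incisors and 5.91 ± 1.19 in contralateral ones. It was lower on the denervated side in 4 of 5 mice, with a difference of -0.64 ± 0.55 (SE) and an adjusted p of 0.831 in limma's test. With the mouse as a block the SE was 0.23 and limma's interval, from -1.17 to -0.11, did not include 0. The adjusted p with the block was 0.447, so that no call is made. Without denervated array 5 the Tac2 difference was -0.33, and without contralateral array 5 it was -1.16. Both incisors of mouse 5 were the lowest of their groups, at 4.03 and 3.83, and leaving out 1 of them splits that pair.

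Penk, the enkephalin precursor gene, had 4.86 ± 0.72 in denervated incisors and 4.09 ± 0.40 in contralateral ones (SD, n = 5 each). Mice 2 and 3 differed by 2.05 and 1.59 and the other 3 by between -0.10 and 0.24, and without mice 2 and 3 the difference of 0.77 was 0.07. Since those mice were picked from cell type markers of these same data, values without them, here and in the lists below, are no independent check. Npy, the neuropeptide Y gene, and Vip lay near the low end, with differences of -0.14 ± 0.11 and 0.03 ± 0.06 (SE). The peptides held in nerve fibres are made in cell bodies outside the tooth, which were not sampled.

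The genes for making, carrying and breaking down catecholamines formed a list with 10 of 12 members measured, 6 higher on average, a median difference of 0.058 and 0 past the threshold. Without mice 2 and 3 the median was -0.0026, with 5 of 10 higher. Th, the rate-limiting enzyme gene of catecholamine synthesis, had 1.66 ± 0.29 in denervated incisors and 1.57 ± 0.15 in contralateral ones, and Dbh, which makes noradrenaline, 1.80 ± 0.12 in denervated and 1.92 ± 0.35 in contralateral incisors (SD, n = 5 each). Only 1 of the 3 Dbh probe sets had this direction. The noradrenaline transporter gene Slc6a2 differed by -0.39 ± 0.39 (SE), with -2.14 in mouse 2 and values from -0.69 to 0.50 in the other 4 mice, and by -0.12 without denervated array 2. The monoamine oxidase genes Maoa and Maob differed by 0.20 ± 0.15 and 0.17 ± 0.18, and by 0.09 and -0.09 without mice 2 and 3.

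Among other receptors of the same families, 23 of 28 genes were measured, 17 of them with a mean below 2, with 11 higher and 12 lower on average and 0 past the threshold. Adcyap1r1, the receptor gene for the peptide PACAP, a relative of vasoactive intestinal peptide, had the smallest unadjusted p of the list. It read 3.08, 2.75, 3.04, 3.60 and 3.05 in denervated incisors 1 to 5, and 3.62, 3.80, 3.35, 3.85 and 3.60 in contralateral incisors 1 to 5. The denervated incisor was lower in 5 of 5 mice, as for 3.8% of all genes, and the groups overlapped only through denervated incisor 4. The difference was -0.54 ± 0.15 (SE), with an adjusted p of 0.790 in limma's test and 0.355 with the mouse as a block, so that no call is made. Leaving out each array in turn gave values between -0.66 and -0.45, and all 3 probe sets had this direction. Ackr3, which encodes a scavenging receptor, lay at 8.23 ± 0.07 in denervated incisors and 8.17 ± 0.11 in contralateral ones (SD, n = 5 each).

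Downstream of the receptors, 30 of 32 genes of G protein and cAMP signalling were measured, with 17 higher and 13 lower on average, a median difference of 0.032 and 0 past the threshold. Without mice 2 and 3 the median was -0.048, with 10 of 30 higher. Gene levels were mostly clear of the low end, with 21 of the 30 at a mean of at least 3. Prkar2b, a regulatory subunit gene of the cAMP-dependent kinase, had 5.18, 4.88, 4.86, 5.19 and 4.72 in denervated incisors 1 to 5, and 4.78, 4.35, 4.11, 4.90 and 3.79 in contralateral incisors 1 to 5. It was higher in 5 of 5 mice, with a difference of 0.58 ± 0.20 (SE) and an adjusted p of 0.790 in limma's test, or 0.317 with the block. Of the adenylyl cyclase genes, only Adcy7 and Adcy2 are named, picked for a small unadjusted p, so they do not stand for the family. Adcy7 differed by 0.73 ± 0.32 (SE) and Adcy2 by -0.45 ± 0.16 (SE). Without mice 2 and 3 the differences were 0.31 for Adcy7 and -0.52 for Adcy2. Both genes had an adjusted p of 0.790 in limma's test.

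Genes that switch receptors off had 7 of 9 measured members higher on average, a median difference of 0.19 and 0 past the threshold. Without mice 2 and 3 the median was 0.077, with 5 of 9 higher. Arrb2, which encodes a beta-arrestin that binds activated receptors, had 5.15 ± 0.11 in denervated incisors and 4.81 ± 0.20 in contralateral ones (SD, n = 5 each), a difference of 0.34 ± 0.10 (SE), higher in 5 of 5 mice. Akap12, a scaffold gene of the beta-adrenergic receptor, had 8.30 ± 0.18 in denervated and 7.91 ± 0.21 in contralateral incisors, also higher in 5 of 5 mice. Rgs4, which encodes a regulator that shortens G protein signals, differed by -0.74 ± 0.31 (SE), and by -0.47 without denervated array 2. Each of these 3 had an adjusted p of 0.790 in limma's test.

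Of the peptidases that cleave neuropeptides, 9 of 9 were measured, with 4 higher and 5 lower on average and 0 past the threshold. Mme, which encodes neprilysin, an enzyme that degrades substance P, had high levels in both groups, at 9.63 ± 0.20 in denervated incisors and 9.76 ± 0.17 in contralateral ones (SD, n = 5 each). Enpep, the glutamyl aminopeptidase gene, was higher in 5 of 5 mice, by 0.46 ± 0.17 (SE). Ece1, the endothelin-converting enzyme gene, differed by 0.44 ± 0.19 (SE), and by 0.09 without mice 2 and 3. Over the 6 lists, an unadjusted p under 0.05 was found for 11 of 96 measured genes, 8 higher and 3 lower on the denervated side, beside 6.21% of all genes, and 0 of 96 passed the adjusted threshold with or without the mouse as a block. Of the 26 genes of these lists named by rule, 18 had a difference that moved by over 1.5 times, or changed sign, when 1 array was left out. Leaving out 1 array also splits a pair, so a level shared by both incisors of a mouse can move the difference.

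**Figure D4:**
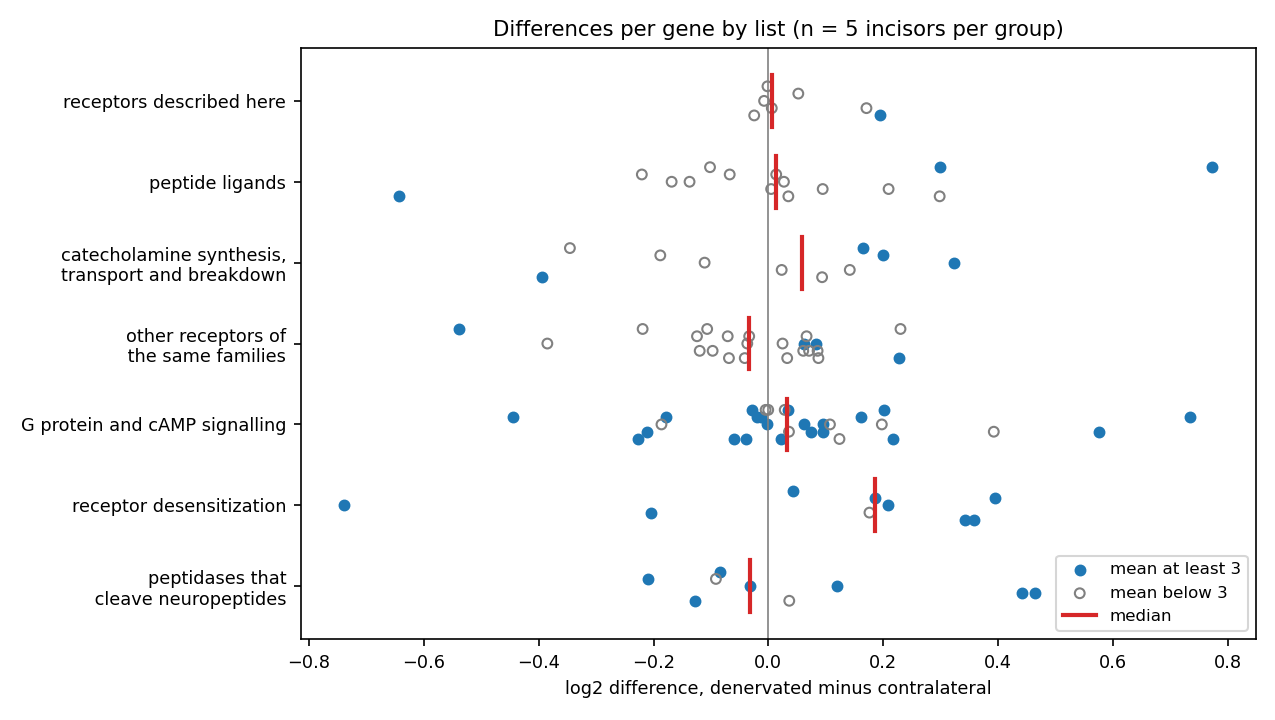
Log2 difference, denervated minus contralateral (horizontal axis), of each measured gene by list; filled points have a mean of at least 3, open points a lower mean, and red bars are list medians. The receptor genes described here lie between -0.02 and 0.19, and the lists' medians between -0.03 and 0.19.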

How the data were processed

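Total RNA of 10 incisors was measured on oligonucleotide arrays, 5 denervated and 5 contralateral. Each probe set has a deposited log2 intensity, made by the authors with RMA, per the submitters' processing notes; version, centring and variant are not given in the sources used here. The log2 scale was read from the values. Of 45101 probe sets, 64 controls were left out and 34945 name 1 gene symbol. They give 18193 genes, with the probe set of the highest average kept for each.

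Denervated and contralateral arrays were compared with limma 3.58.1 (lmFit, eBayes) in R 4.3.3, two-sided, with Benjamini-Hochberg adjustment over all genes and a threshold of 0.05. SE is limma's standard error from this fit unless the block is named. No mouse term entered this fit, so its SE includes the spread between mice. The labels do not say that equal numbers mark a mouse, but per the design text 5 mice gave both incisors. After subtracting group means, the 5 pairs of equal number correlated at 0.18 to 0.57 over genes, and the 20 other pairs at -0.41 to 0.22. Of the 5 denervated arrays, 4 correlated best with the contralateral array of equal number. Equal numbers were therefore read as pairs, and a second fit had the mouse as a block. On simulated data of 18193 genes, the comparison without the block found 42% of true changes of 0.5 log2 units, 86% of those of 1 and 98% of those of 2. The changes were put only into genes with means above that of every receptor gene except Calcrl. These shares therefore do not cover the other receptor genes. They are not the share for Calcrl either, whose SE of 0.19 lay above the median SE of 0.10 over all genes. Noise was drawn independently for each value, with no pairs and no shifts shared by the genes of an array, unlike the real arrays.

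Members and lists were chosen with earlier results of these data known. Named are all members, a set of 13 partner genes of which 11 were measured, up to 3 further genes per pathway list with the smallest unadjusted p and a mean of at least 3, and the 3 profiles nearest to each member with such a mean. Alternatives were the block, averaging all probe sets of a gene, a filter on low means, median centring, quantile normalization, a trended robust eBayes, leaving out each array, and leaving out mice 2 and 3. Mice 2 and 3 are those whose denervated arrays stood apart in cell type markers of these same data. Leaving them out therefore moves the difference of any gene that follows those markers, and is no independent check. Gene positions and sequence windows are RefSeq's on GRCm38.p6.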

Additional observations from a re-analysis of the deposited data

Results flagged for a closer look

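Among the 14 sets of 5 values (7 receptor genes in 2 groups), 2 held a sample far from the others, where chance gives about 1 in 20. Tacr1 was 0.56 in denervated incisor 2, the lowest of its group, with a gap to the next value of 0.758 of the group's range. Vipr1 was 0.74 in contralateral incisor 1, the lowest of its group, with a gap of 0.736 of the range. Both values lie below the array medians, near the low end of the scale.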

How the results depend on the processing

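In each of the 18 alternatives 0 genes passed the adjusted threshold of limma's test; the smallest adjusted p of any gene was 0.234 with the mouse as a block (replicate pairing), and at least 0.443 in the 16 alternatives without a block. The comparison as reported gave 0.790, with 1129 genes at an unadjusted p under 0.05. The block changed no call, and the receptor genes' median difference stayed between 2.71e-05 and 0.060. Calcrl and Tacr1 kept their direction in all alternatives. The block and the trended robust eBayes do not alter a difference, so they could not reverse one. Calcrl was between 0.07 and 0.29 with 1 array left out, and 0.0061 with the mean of its probe sets, and Tacr1 was between 0.024 and 0.12 with 1 array left out and 0.15 without mice 2 and 3. Of 120 member values, which include those of settings that cannot alter a difference, 27 changed sign. Ramp1 was -0.021 without mice 2 and 3, with or without the block, and 0.012 to 0.33 with 1 array left out. Ramp3 was 2.7e-05 without mice 2 and 3, and -0.053 to 0.060 with 1 array left out. Npy1r was 0.0019 with arrays centred on the median, 0.020 with quantile normalization, and -0.042 to 0.027 with 1 array left out. Vipr1 was 0.13 without mice 2 and 3, and -0.11 to 0.028 with 1 array left out. Vipr2 was -0.017 without mice 2 and 3, and -0.057 to 0.058 with 1 array left out. The cause of these sign changes was not tested. With the filter on means of at least 3, Calcrl was the one receptor gene left. The fit that joins the block with leaving out mice 2 and 3 was added after seeing the data.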
